A study of Mus musculus with 8 samples.

Results

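Cdx1, Cdx2, Hnf4a, Hnf4g, Gata4, Gata6, Klf5 and Klf3 are transcription factors that set and keep the identity of the intestinal epithelium, and their transcript levels were compared between conventionalized and germ-free mice. They were chosen by name, as the gene identifiers that map to these caudal, hepatocyte nuclear factor, GATA and Krüppel-like factors. All 8 were found among the 48440 genes of the table, and all 8 were among the 10053 genes expressed highly enough to be tested. The libraries come from 8 female mice on a C57BL/6J background that carry Sox9-EGFP, a reporter in which green fluorescent protein follows the transcription factor Sox9, and all were raised germ-free. In each of 4 littermate pairs (A to D) 1 animal stayed germ-free. The other, when 8 to 10 weeks old, was conventionalized by a move to another animal facility and a gavage of fecal slurry, and both littermates were studied 2 weeks later. The move and the microbes therefore cannot be told apart. Jejunal epithelial cells with a low reporter signal (Sox9-EGFP Low, a crypt fraction rich in stem cells) were sorted, and the gate removed cells stained by Annexin-V or Sytox-blue (dying cells), CD45 (leukocytes) and CD31 (endothelium). RNA (10 ng) from each animal gave 1 library of 100 bp single-end reads, so n is 4 animals per group. The study asked how the microbiota affects this stem cell population.

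CDX1 and CDX2 are homeobox factors of the caudal family. CDX2 specifies intestine during development and holds off the gene programs of the stomach in the adult. HNF4A and HNF4G are nuclear receptors that bind the same sites and together drive enterocyte genes for lipid handling and the brush border. GATA4 and GATA6 are zinc finger factors that maintain the proximal small intestine, where GATA4 keeps jejunal genes on and ileal genes off. KLF5 and KLF3 bind similar GC-rich sites. KLF5 is an activator found in dividing crypt cells, while KLF3 recruits the corepressor CtBP and mostly represses.

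Promoter sequence bears on these genes because such factors are known to control one another's genes. RefSeq windows of GRCm38.p6, from 250 bases before to 50 after a transcription start, were at hand for 3 of the 8 factors in 4 windows, since Hnf4a has 2 starts that lie 40298 bp apart. Cdx1, Hnf4g, Gata4, Gata6 and Klf5 had no entry. The bases upstream of each start that lie outside exons of the gene's own coding transcripts are printed 5′ to 3′ on the gene's strand. They show which of the factors' own recognition letters stand there. Exons of noncoding transcripts and of other genes were not checked. Capitals mark matches, on either strand, to CCNCNCCC (a KLF and SP site), and overlapping matches merge into 1 run of capitals. The Cdx2 stretch is chr5:147307271-147307499 (minus strand), the 2 Hnf4a stretches are chr2:163506607-163506807 and chr2:163546905-163547154 (plus strand), and the Klf3 stretch is chr5:64803271-64803387 (plus strand).
Cdx2: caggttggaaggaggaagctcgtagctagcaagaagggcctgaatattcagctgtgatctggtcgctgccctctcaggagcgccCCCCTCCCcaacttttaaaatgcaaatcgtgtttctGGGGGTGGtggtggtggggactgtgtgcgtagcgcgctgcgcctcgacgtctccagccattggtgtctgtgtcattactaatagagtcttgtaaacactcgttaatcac
Hnf4a upstream start: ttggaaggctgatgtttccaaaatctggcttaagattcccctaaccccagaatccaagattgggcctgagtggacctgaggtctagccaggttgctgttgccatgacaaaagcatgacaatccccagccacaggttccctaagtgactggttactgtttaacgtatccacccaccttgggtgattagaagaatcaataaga
Hnf4a downstream start: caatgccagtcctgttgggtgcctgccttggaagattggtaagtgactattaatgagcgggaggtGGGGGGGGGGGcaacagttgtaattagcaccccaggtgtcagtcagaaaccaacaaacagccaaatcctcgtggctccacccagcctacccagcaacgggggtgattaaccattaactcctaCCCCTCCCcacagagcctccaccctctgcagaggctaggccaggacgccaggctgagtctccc
Klf3: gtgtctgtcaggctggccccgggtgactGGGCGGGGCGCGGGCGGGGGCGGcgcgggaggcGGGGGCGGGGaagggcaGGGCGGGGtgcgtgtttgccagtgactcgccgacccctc

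The Klf3 window was the richest in KLF and SP letters, with 10 matches in its 300 bases, some of them overlapping, and 7 in the stretch shown. Such a match is common: 49.5% of 32851 mouse promoter windows of that length hold at least 1. The fixed letters of the site are all C (G on the other strand). The Klf3 window was 76.7% G and C, against 54.0% to 57.3% in the other windows shown. The downstream Hnf4a window held 5 matches, 4 of which overlap in 1 run of G, the Cdx2 window 2, and the upstream Hnf4a window 1, which lies past the printed stretch. A GATA site (AGATAA, 11.2% of windows) occurred 1 time in the upstream Hnf4a window. It begins in the last printed bases and runs past their end, so it is not in capitals. Neither a CDX site (TTTATNG, 10.9% of windows) nor the HNF4 site CAAAGTCCA (0.475% of windows) was found in these 4 windows. The letters describe the windows only. The table has 1 row per gene, so transcripts from the 2 starts of Hnf4a are pooled in the values given here.

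Values are CPM, the deposited signal relative to the library total, scaled between libraries by TMM, the trimmed mean of log ratios. Differences are log2 of conventionalized over germ-free, taken on log2(CPM + 0.5), with their standard error (SE). They were tested with limma, and each adjusted p is a Benjamini-Hochberg value over all 10053 genes. The libraries held epithelial transcripts: the summed level of 8 epithelial markers was 11705 to 24408 CPM in conventionalized libraries against 10182 to 15370 CPM in germ-free ones, and 0 of 20 leukocyte, 2 of 9 endothelial and 1 of 11 stromal markers reached the expression minimum of 10 CPM in 4 libraries. Stromal markers summed to 33.1 to 43.1 CPM in the conventionalized group and to 53.9 to 149.5 CPM in the germ-free group, without overlap, and their part in the values below was not tested. Depth ran from 6209041 to 19139683 reads on an approximate scale recovered from the values. The shallowest library, that of the germ-free animal of pair C, stood apart: its correlation with its own group had a median of 0.792, where the remaining 7 libraries had 0.871 to 0.943. The library of the conventionalized animal of pair A stood apart on goblet cell markers, which summed to 51098 CPM there and to 1816 to 8260 CPM in the other 7. Enterocyte markers summed to 4309 CPM there, against 1074 to 1777 CPM in the rest of its group and 2206 to 5754 CPM in germ-free libraries.

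All 8 factors had higher mean levels in conventionalized than in germ-free libraries, by 0.19 (Hnf4g) to 0.81 (Klf5) on the log2 scale, and none of the 8 passed the test. Over all genes tested, 4.92% were called, 1.16% as higher and 3.76% as lower. The factors' median difference was 0.66, while the median over all genes tested was itself 0.32, with 70.2% of genes above 0. Of the 8 factors, 7 lay above that median, and 6 lay between the quartiles of all genes, -0.09 and 0.71. An unadjusted p under 0.05 was found for Gata4, Gata6 and Klf3, that is, 3 of 8, against 19.7% of all genes in this direction and 8.12% in the other. The 4 conventionalized libraries all lay above the 4 germ-free libraries for Gata6 and Klf3, 2 of 8, as they did for 9.03% of all genes, while for 5.88% of all genes they all lay below. With library size alone in place of TMM the median of all genes moved to 0.09, and the factors' differences became 0.28 for Cdx1, 0.39 for Cdx2, 0.22 for Hnf4a, -0.04 for Hnf4g, 0.49 for Gata4, 0.46 for Gata6, 0.58 for Klf5 and 0.46 for Klf3. On that scale 7 of 8 factors were still above 0, and Hnf4g had changed sign. In RNA from sorted cell pools, fewer cells of a type and less RNA per cell cannot be told apart.

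**Figure D1:**
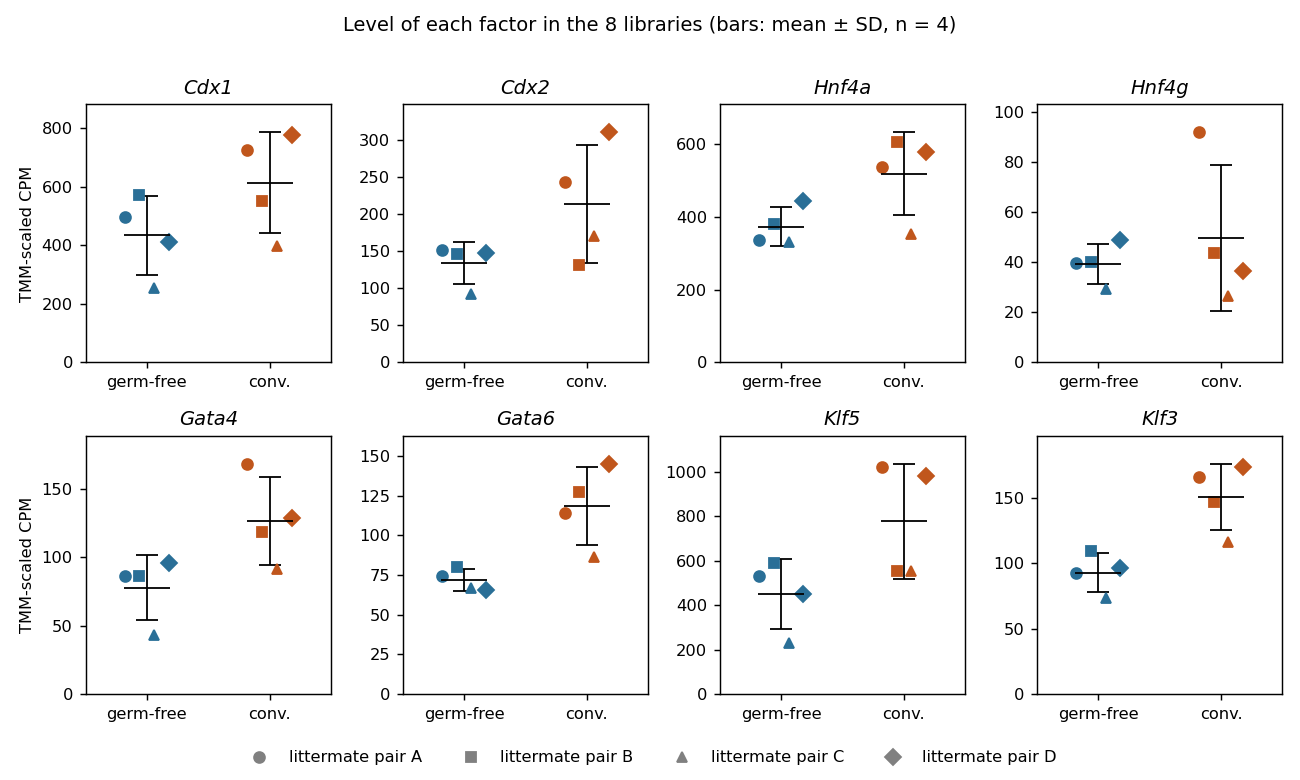
TMM-scaled CPM of each factor (vertical axes, from 0) in the 4 germ-free (blue) and 4 conventionalized (orange, "conv.") libraries; symbols mark the littermate pair and bars the mean ± SD (n = 4). The groups are apart for Gata6 and Klf3 and overlap for the other 6 factors, and the germ-free animal of pair C (blue triangle) is the lowest of the 8 libraries for 6 of 8 factors.

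Both caudal genes had higher means in conventionalized animals, with overlapping groups. Cdx1 (ENSMUSG00000024619.8, chr18:61018862-61036199 on the minus strand, a protein-coding gene; positions are from the GENCODE M21 annotation of GRCm38) stood at 727, 552, 399 and 779 CPM in the conventionalized animals of pairs A to D and at 497, 573, 256 and 411 CPM in their germ-free littermates. Conventionalized animals were higher in pairs A, C and D and not in pair B, and the groups overlapped. The means were 614 ± 173 and 434 ± 136 CPM (SD, n = 4), and the difference of 0.51 (SE 0.37, 95% interval -0.29 to 1.32) did not pass the test (limma, adjusted p = 0.353). Cdx2 (ENSMUSG00000029646.3, chr5:147300805-147307270 on the minus strand) stood at 243, 131, 171 and 310 CPM in conventionalized animals against 151, 146, 91.7 and 147 CPM in germ-free ones, in the same order of pairs. The germ-free animals of pairs A, B and D lay close together and that of pair C well below, while the conventionalized animals spread more widely. The means were 214 ± 79.4 and 134 ± 28.2 CPM, with a difference of 0.62 (SE 0.33, 95% interval -0.09 to 1.34, limma, adjusted p = 0.223). Within littermate pairs the Cdx2 difference was 0.69, -0.16, 0.89 and 1.08 and that of Cdx1 0.55, -0.05, 0.64 and 0.92 (A to D). Both caudal genes thus had their only negative pair in B and their widest in D. Each has 1 annotated transcript. On the scale recovered from the values, 2229 to 11649 reads per library stood behind the values of Cdx1 and 799 to 4642 behind those of Cdx2.

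Hnf4a, the more abundant of the HNF4 receptors (ENSMUSG00000017950.16, chr2:163506808-163572910 on the plus strand), stood at 537, 606, 353 and 577 CPM in conventionalized animals against 335, 380, 329 and 444 CPM in germ-free ones. It was higher in the conventionalized littermate of all 4 pairs, but the conventionalized animal of pair C lay among the germ-free values. The means were 518 ± 114 and 372 ± 53.0 CPM, and the difference was 0.46 (SE 0.32, 95% interval -0.24 to 1.15, limma, adjusted p = 0.342). The spread of Hnf4a across the 8 libraries, 0.34 as root mean square about its mean log2 level, was the smallest of the 8 factors. Hnf4g (ENSMUSG00000017688.14, chr3:3508030-3658052 on the plus strand), its paralog in differentiating enterocytes, stood at 92.0, 43.5, 26.7 and 36.3 CPM in conventionalized animals against 39.7, 40.2, 29.3 and 48.8 CPM in germ-free ones. The conventionalized animal of pair A lay far above every other library, and the remaining 7 libraries of both groups lay between 26.7 and 48.8 CPM. The difference was 0.19 (SE 0.36, 95% interval -0.57 to 0.96, limma, adjusted p = 0.734) and turned to -0.19 without that library. Hnf4g was the 1 factor of the 8 whose direction depended on a single library. The same library had the highest enterocyte marker sum of the conventionalized group. The part of enterocytes in the Hnf4g values was not tested.

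Gata4 and Gata6 were both higher in the conventionalized littermate of every pair. Gata4 (ENSMUSG00000021944.15, chr14:63198922-63271692 on the minus strand) stood at 169, 118, 91.2 and 128 CPM in conventionalized animals against 85.9, 86.2, 43.3 and 95.9 CPM in germ-free ones, and only the conventionalized animal of pair C lay within the germ-free range. The means were 127 ± 32.0 and 77.8 ± 23.5 CPM, and the difference of 0.73 (SE 0.32, 95% interval 0.04 to 1.41) had an unadjusted p of 0.0392 and an adjusted p of 0.164 (limma). Gata6 (ENSMUSG00000005836.8, chr18:11052064-11085635 on the plus strand) stood at 114, 127, 86.7 and 145 CPM in conventionalized animals against 74.7, 80.3, 66.6 and 65.6 CPM in germ-free ones. All conventionalized values lay above all germ-free values, and the germ-free animals were close together. The means were 118 ± 24.7 and 71.8 ± 6.98 CPM, and the difference was 0.70 (SE 0.26, 95% interval 0.13 to 1.27, limma, unadjusted p = 0.0196, adjusted p = 0.131). Within pairs A to D it was 0.61, 0.66, 0.38 and 1.14. A transcript on the opposite strand, 1010001N08Rik, shares 93 exonic bases with Gata6 and stood at 2.47 to 13.3 CPM; the sources used here do not give the use of strand in counting, and reads in that overlap cannot be assigned.

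Of the Krüppel-like factors, Klf5 had the largest difference of the 8, with overlapping groups, and Klf3 a smaller one with groups apart. Klf5 (ENSMUSG00000005148.7, chr14:99298691-99315036 on the plus strand) stood at 1022, 554, 552 and 982 CPM in conventionalized animals against 532, 589, 228 and 449 CPM in germ-free ones. The conventionalized animals of pairs A and D were well above those of B and C, which lay within the germ-free range. The means were 778 ± 260 and 450 ± 159 CPM, and the difference of 0.81 (SE 0.40, 95% interval -0.05 to 1.68) did not pass the test (limma, adjusted p = 0.196). Klf3 (ENSMUSG00000029178.14, chr5:64803388-64832901 on the plus strand) stood at 166, 147, 117 and 174 CPM in conventionalized animals against 92.7, 110, 73.3 and 96.4 CPM in germ-free ones. The groups did not overlap, and the conventionalized littermate was higher in every pair, by 0.84, 0.42, 0.67 and 0.85. The means were 151 ± 25.6 and 93.0 ± 15.0 CPM, with a difference of 0.69 (SE 0.27, 95% interval 0.11 to 1.28, limma, unadjusted p = 0.0231, adjusted p = 0.138). The antisense transcript Gm20033 overlaps 404 exonic bases of Klf3 and stood at 1.20 to 7.79 CPM.

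**Figure D2:**
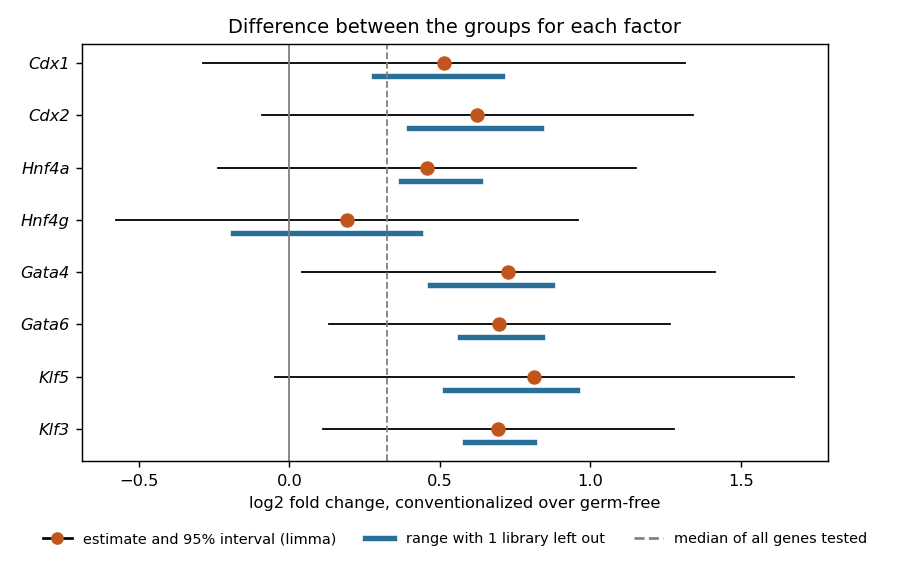
Log2 difference of conventionalized over germ-free libraries for each factor (horizontal axis; orange point, limma estimate; black line, 95% interval; n = 4 per group), with the range over the 8 fits that leave out 1 library (blue bar). The dashed line is the median of all genes tested, 0.32, and every interval except those of Gata4, Gata6 and Klf3 includes 0.

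No factor was called in any of the 8 fits that left out 1 library, nor with the littermate pair as a block, where 8.08% of all genes were called higher. When limma weighted libraries by their quality, Gata6 (0.70, adjusted p = 0.0403) and Klf3 (0.67, adjusted p = 0.0498) passed, in a fit that called 7.61% of all genes higher and 6.05% lower and gave the germ-free library of pair C a weight of 0.201 against 0.538 to 2.76 for the others. Over the 19 alternative fits the adjusted p ranged from 0.0403 to 0.387 for Gata6 and from 0.0498 to 0.412 for Klf3. When the germ-free animal of pair C was left out, the differences were 0.28 for Cdx1, 0.45 for Cdx2, 0.40 for Hnf4a, 0.06 for Hnf4g, 0.47 for Gata4, 0.66 for Gata6, 0.52 for Klf5 and 0.58 for Klf3. Those of Cdx1, Gata4 and Klf5 shrank most, and those of Gata6 and Hnf4a least. The median of all genes moved from 0.32 to 0.22 in the same fit. Without both libraries that stood apart they were 0.18, 0.37, 0.37, -0.29, 0.32, 0.67, 0.36 and 0.53 in the same order, and the median of all genes was 0.15. In the cells sorted, markers of cell states moved with the groups as well, beside 1.16% of all genes called higher and 3.76% lower. Mitosis genes summed to 1337 to 1704 CPM in conventionalized libraries against 183 to 809 CPM in germ-free ones (8 of 12 called higher), and 10 stem cell markers to 5423 to 10617 and 961 to 5548 CPM (1 of 10 called higher). Enteroendocrine markers summed to 10122 to 26907 and 44415 to 101180 CPM (8 of 14 called lower). Their part in the factors' differences was not tested.

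Levels of different genes can be set side by side only per length, here as CPM per kb of annotated exon over all 8 libraries. Cdx1 was the most abundant factor at 299.5 ± 99.1, followed by Klf5 at 118 ± 51.0, Hnf4a at 92.2 ± 23.5 and Cdx2 at 76.9 ± 30.9 (SD, n = 8). Below them came Gata4 at 26.2 ± 9.43, Hnf4g at 16.9 ± 7.78, Gata6 at 14.6 ± 4.62 and Klf3 at 10.9 ± 3.25. Cdx1 was above Klf5, Cdx2 above Gata4 and Gata6 above Klf3 in all 8 libraries, and Gata4 was above Hnf4g in 7 of 8. The order of Klf5 and Hnf4a held in 5 of 8 libraries, that of Hnf4a and Cdx2 in 6 of 8 and that of Hnf4g and Gata6 in 5 of 8. The ranges of all 7 neighbouring pairs overlapped. With the longest transcript as the length, Klf5 was at 183, Gata6 at 25.1 and Klf3 at 23.4, and Hnf4g became the lowest, so the order within the lower 4 rests on the gene model.

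**Figure D3:**
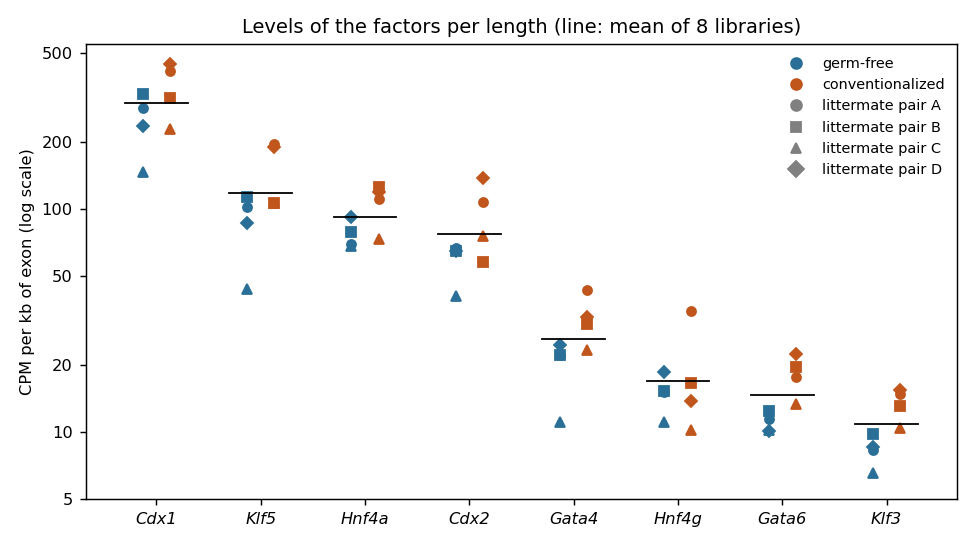
CPM per kb of annotated exon (log axis) for the 8 factors in order of their mean (black line, 8 libraries), with germ-free libraries in blue, conventionalized in orange and symbols for the littermate pair. Cdx1 averages 299.5 and Klf3 10.9, and the range of each factor overlaps that of its neighbour.

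The balance within each family can be read inside a library, where scaling cancels. Cdx1 exceeded Cdx2 in every library, with a log2 ratio of CPM per kb of 1.95, 2.44, 1.59 and 1.70 in conventionalized and 2.08, 2.33, 1.84 and 1.85 in germ-free animals of pairs A to D. Littermates B had the highest ratio in both groups. The group difference was -0.11 (exact permutation p = 0.6, adjusted over the 4 ratios 0.8). Hnf4a exceeded Hnf4g in every library, by 1.66, 2.91, 2.82 and 3.10 in conventionalized and 2.18, 2.35, 2.59 and 2.30 in germ-free animals. The conventionalized animal of pair A, the one with high Hnf4g, had the lowest ratio, and the other 3 conventionalized animals had the highest. The difference was 0.27 (exact permutation p = 0.486, adjusted 0.8). Gata4 exceeded Gata6 by 0.82 ± 0.33 in conventionalized and 0.80 ± 0.49 in germ-free animals, where the animal of pair C had 0.12 and the others 0.84 to 1.28 (difference 0.03, exact permutation p = 0.943, adjusted 0.943). With the longest transcript as the length, Gata4 averaged 30.1 and Gata6 25.1 CPM per kb. The size of this ratio, and in some libraries its sign, thus rests on the gene model, while the group difference does not. Klf5 exceeded Klf3 by 3.43 ± 0.31 and 3.31 ± 0.40 (difference 0.12, exact permutation p = 0.6, adjusted 0.8). Within littermate pairs A to D the Gata4 over Gata6 difference was 0.36, -0.21, 0.69 and -0.72. That of Klf5 over Klf3 was 0.10, -0.51, 0.61 and 0.28. The tests do not use the littermate pairs, within which a permutation p could not go below 0.125. They are two-sided over 70 assignments of the 8 libraries, whose smallest p is 0.0286. After adjustment over the 4 ratios, a single ratio at that smallest p would still not pass. None of the 4 ratios passed. That does not show that the balance was the same, since the SD within a group reached 0.65 on the log2 scale.

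**Figure D4:**
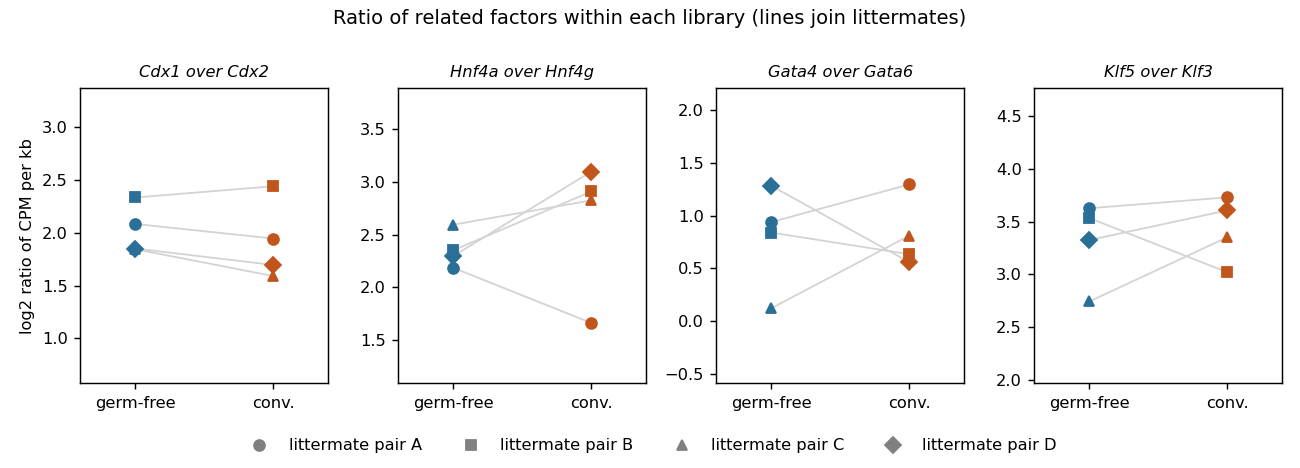
Log2 ratio of CPM per kb between related factors within each library (vertical axes), germ-free in blue, conventionalized ("conv.") in orange, with grey lines joining littermates (symbols, pairs A to D). With annotated exon as the length, every ratio is above 0, and the groups overlap in all 4 panels. For Gata4 over Gata6 the sign in some libraries depends on the length used. The Hnf4a over Hnf4g ratio of the conventionalized animal of pair A, 1.66, is the lowest of its panel.

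For each factor the genes with the most similar profile over the 8 libraries were found among all genes tested, as the smallest root mean square distance between log2 levels centred on their own means. Kcnk1 lay 0.048 from Cdx1, Tmem242 0.121 from Cdx2, Khsrp 0.070 from Hnf4a and Galnt7 0.138 from Hnf4g. Exo5 lay 0.060 from Gata4, Angel2 0.087 from Gata6, Ube2m 0.067 from Klf5 and Tomm40l 0.068 from Klf3. The second nearest were Ecd, Mif4gd, Cebpz, Mal2, Dcaf4, Wdr82, Dhrs7b and Rbck1 in the same order. No factor had another of the 8 among its nearest pair of genes. Hnf4g had the largest distance to its nearest gene. All of these profiles share the same 8 libraries, their depth and the library that stood apart in pair C.

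Other members of the same families did not all lie on the side of the 8 factors. Of 6 other GATA factors and FOG cofactors, 2 were expressed highly enough to be tested and limma called 0 (1 had an unadjusted p below 0.05). Gata5, which overlaps in function with Gata4 and Gata6, was at 143 ± 21.6 CPM in conventionalized animals against 92.3 ± 29.8 CPM in germ-free ones (0.68, limma, adjusted p = 0.175), and the cofactor Zfpm1 (FOG1) differed by -0.22 (adjusted p = 0.661). Gata1, Gata2 and Gata3, factors of blood lineages among others, were below the minimum. Gata2 is described further after its values were seen: it stood at 0.57, 0.86, 1.83 and 0.55 CPM in conventionalized animals of pairs A to D and at 4.64, 6.42, 11.6 and 6.17 CPM in their littermates. All germ-free values lay above all conventionalized values, opposite to Gata4 and Gata6. No test is given, since Gata2 was below the minimum and was picked for these values. Endothelial markers summed to 17.4 to 50.2 CPM in conventionalized libraries against 43.3 to 74.5 CPM in germ-free ones, with overlap. Leukocyte markers summed to 13.7 to 40.8 and 30.1 to 40.2 CPM, also with overlap. Stromal markers summed to 33.1 to 43.1 and 53.9 to 149.5 CPM, without overlap. The part of such cells in the Gata2 values was not tested.

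Of 15 other KLF factors 8 were tested, with a median difference of -0.11 against 0.32 over all genes, and limma called 0 (2 had an unadjusted p below 0.05). Klf4, which is linked to cell cycle exit and goblet cells, was at 18.9 ± 10.7 and 43.4 ± 17.4 CPM (-1.29, limma, adjusted p = 0.104). Klf2, best known from endothelium and lymphocytes, was at 41.5 ± 23.9 and 88.0 ± 15.1 CPM (-1.32, limma, adjusted p = 0.102). With the littermate pair as a block both fell (adjusted p = 0.0329 for Klf2 and 0.0325 for Klf4), in a fit that called 5.02% of all genes lower. Over 19 alternative fits the adjusted p ranged from 0.00134 to 0.3 for Klf2 and from 0.0138 to 0.279 for Klf4. Klf4 also passed when the germ-free animal of pair B was left out (adjusted p = 0.0443). The smallest Klf2 difference, -0.78, was found without the conventionalized library of pair B. Klf10 differed by 0.41 (adjusted p = 0.326). Endothelial markers summed to 17.4 to 50.2 CPM in conventionalized and 43.3 to 74.5 CPM in germ-free libraries, with overlap. Stromal and enteroendocrine markers were higher in the germ-free libraries without overlap. The part of any of these cells in the Klf2 difference was not tested.

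Among 8 other HNF and FOXA factors, 6 were tested and limma called 0 (3 had an unadjusted p below 0.05), with a median of 0.27. Foxa1, a pioneer factor that opens chromatin in endodermal and secretory cells, was at 91.9 ± 20.2 CPM in conventionalized animals against 201 ± 61.5 CPM in germ-free ones, with no overlap (-1.10, SE 0.30, limma, adjusted p = 0.0534). It fell with the pair as a block (adjusted p = 0.0283) and with library size only (adjusted p = 0.0271), and over 19 alternative fits its adjusted p ranged from 0.0135 to 0.16. It also passed when the germ-free animal of pair B (adjusted p = 0.0421) or of pair C (0.0476) was left out. Enteroendocrine markers were higher in the same germ-free libraries, and their part in the Foxa1 difference was not tested. Foxa3, a related forkhead factor, differed by 0.72 (adjusted p = 0.167). None of the 4 other caudal and ParaHox genes was tested: Pdx1, the duodenal and pancreatic factor, averaged 4.23 CPM in conventionalized animals against 8.61 CPM in germ-free ones, and Cdx4 0.236 and 0.347 CPM. Of 20 further transcription factors of gut epithelium 16 were tested, 15 with a difference above 0 and a median of 0.71, and limma called 0 (9 had an unadjusted p below 0.05). Over all genes tested, 70.2% had a difference above 0 and the median was 0.32. An unadjusted limma p below 0.05 was found for 19.7% of all genes as higher and 8.12% as lower. With the pair as a block 5 of the 16 rose, where 8.08% of all genes did, namely Ehf, Tcf7l2, Vdr, Rxra and Esrra. Of these Ehf, Vdr and Rxra (adjusted p = 0.0431, 0.0494 and 0.0336 with the block, 0.138, 0.108 and 0.148 without it) are named after their values were seen. Tcf7l2, the Wnt effector TCF4, was at 35.1 and 17.5 CPM (1.01, limma, adjusted p = 0.0608, 0.0374 with the block, 0.0337 to 0.214 over the alternatives). Esrra, an orphan nuclear receptor of mitochondrial genes, was at 67.6 and 31.8 CPM (1.03, adjusted p = 0.0676, 0.0329 with the block, 0.00865 to 0.276 over the alternatives), and Grhl2, a factor of epithelial junctions, differed by 0.93 (adjusted p = 0.0914).

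**Figure D5:**
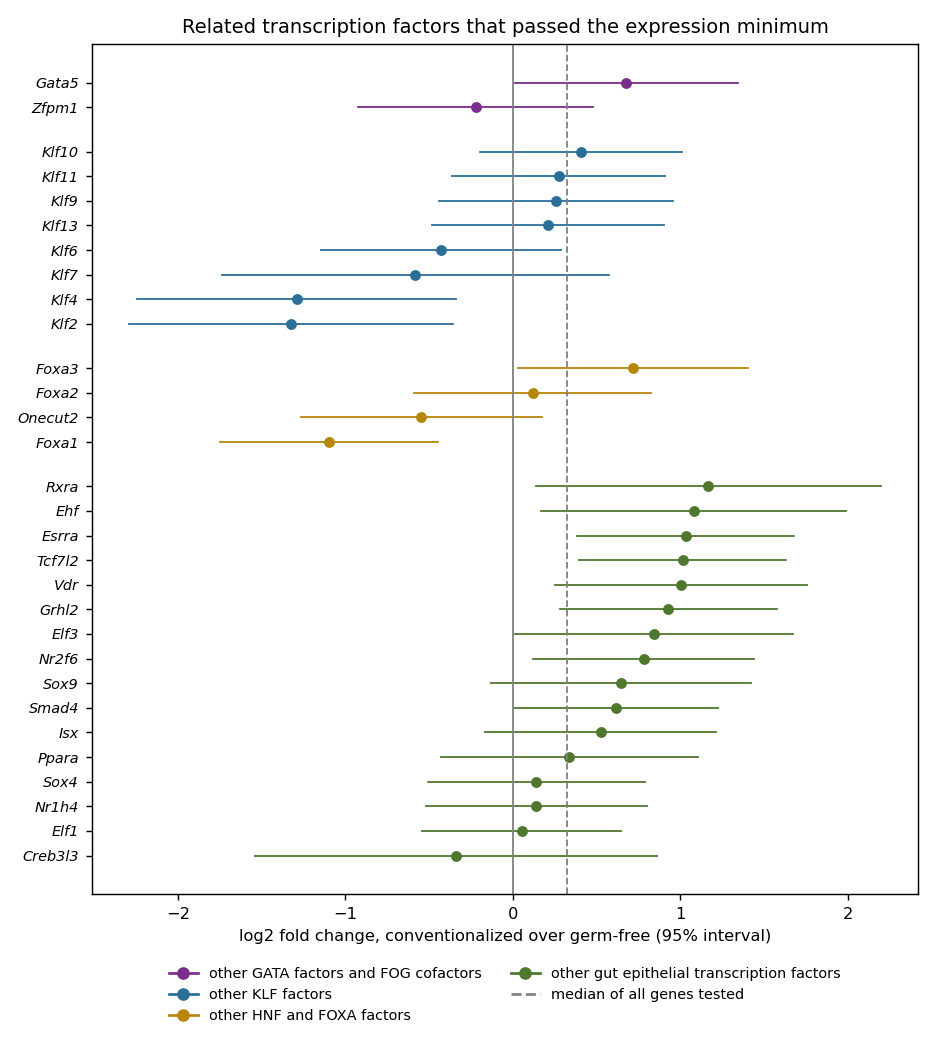
Log2 difference of conventionalized over germ-free libraries (horizontal axis; points, limma estimates; lines, 95% intervals; n = 4 per group) for related transcription factors that were tested, all but 2 of them shown, coloured by list. Klf2, Klf4 and Foxa1 lie furthest below 0, and 15 of the 16 further gut factors lie above 0, as do 70.2% of all genes tested. The dashed line is the median of all genes tested, 0.32.

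Among the 37 genes tested that are described as targets of the factors, 2 rose and 2 fell (5.41% each way, against 1.16% and 3.76% of all genes). The 37 pool activated targets with Slc51a, which GATA4 is described as holding down. Both that rose are in the KLF5 list, given below, and both that fell in the CDX2 list. Of 13 genes described as activated by CDX2, 11 were tested, 0 rose and 2 fell, with a median of 0.04. Both that fell also stand in the enterocyte marker list, of which 13 genes were tested, 3 fell, 7 had a difference above 0 and the median was 0.50. Sis, the brush border disaccharidase sucrase-isomaltase, was at 68.6 ± 31.7 CPM in conventionalized animals against 258 ± 113 CPM in germ-free ones (-1.89, limma, adjusted p = 0.0132, but 0.0597 and 0.0589 when the conventionalized animal of pair B or of pair C was left out). Krt20, a keratin of differentiated villus cells, was at 475 and 1592 CPM (-1.82, limma, adjusted p = 0.0317). Leaving out the conventionalized library of pair B, C or D gave 0.115, 0.0952 and 0.0751, and leaving out the germ-free animal of pair A gave 0.0972. Cldn2, a leaky claudin of crypts, lay the other way at 359 and 167 CPM (1.23, adjusted p = 0.0909) and rose with the pair as a block (adjusted p = 0.0234, 0.0104 to 0.263 over the alternatives). Sis and Krt20, though listed with CDX2, thus lay opposite to Cdx2 itself, whose own difference did not pass the test.

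Of 20 genes described as activated by HNF4, 19 were tested and limma called 0 (4 had an unadjusted p below 0.05), with a median of 0.15. The 20 genes summed to 5998 CPM in the conventionalized animal of pair A and to 2446 to 3151 CPM in the other conventionalized animals. Germ-free libraries had 3256 to 5968 CPM. Abcg5 and Abcg8 form the transporter that returns sterols to the gut lumen. Abcg5 was at 76.3 and 31.8 CPM without overlap (1.33, limma, adjusted p = 0.0501), Abcg8 differed by 1.08 (adjusted p = 0.149), and both rose with the pair as a block (adjusted p = 0.0175 and 0.0409). Over the alternatives the adjusted p ranged from 0.00738 to 0.164 for Abcg5 and from 0.011 to 0.461 for Abcg8. Abcg5 also passed when the germ-free animal of pair B (adjusted p = 0.0394) or of pair C (0.0318) was left out. Cdhr2, a protocadherin that links microvilli, differed by -1.04 (adjusted p = 0.0989). Of 7 jejunal genes described as activated by GATA4, all also in the HNF4 or CDX2 list, 6 were tested and limma called 0 (2 had an unadjusted p below 0.05), with a median of 0.63, and Npc1l1, the cholesterol importer, differed by -0.70 (adjusted p = 0.234). Among 5 ileal genes that GATA4 is described as holding down, only the bile acid exporter subunit Slc51a was tested (1.77, adjusted p = 0.199, 0.0288 with the block, up to 0.877 over the alternatives). It stood at 181 CPM in the conventionalized animal of pair A and at 12.0 to 17.4 CPM in the other 3, and its difference was 0.82 without that library. It was 2.4 when the germ-free animal of pair A was left out and 1.10 when that of pair C was. Slc10a2, the ileal bile acid importer, averaged 0.88 CPM in conventionalized animals against 0.72 CPM in germ-free ones, and Fabp6 15.9 and 4.18 CPM. Together the 5 ileal genes summed to 240 CPM in the conventionalized animal of pair A and to 19.5 to 43.2 CPM in the rest of its group. Germ-free libraries had 7.69 to 47.5 CPM.

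All 6 genes described as activated by KLF5 were tested, 2 rose and 0 fell, with a median of 1.54 against 0.32 over all genes, of which 1.16% rose and 3.76% fell. Both that rose are mitotic and also stand in the mitosis list. Cdk1, the kinase that starts mitosis, was at 168 ± 23.5 CPM in conventionalized animals against 55.6 ± 39.7 CPM in germ-free ones (1.88, limma, adjusted p = 0.0289), and its cyclin Ccnb1 at 177 and 65 CPM (1.69, adjusted p = 0.0426). Without any 1 conventionalized library the adjusted p was 0.0666 to 0.092 for Cdk1 and 0.101 to 0.121 for Ccnb1. Leaving out the germ-free animal of pair A gave 0.0688 and 0.0935, and leaving out that of pair D gave 0.0705 and 0.0515. With no filter on low values that of Ccnb1 was 0.0583. Birc5 (survivin) differed by 1.80 (adjusted p = 0.0725) and with the block rose (adjusted p = 0.0286, 0.0124 to 0.238 over the alternatives). It also passed when the germ-free animal of pair B (adjusted p = 0.0259) or of pair C (0.0124) was left out. Mitosis markers as a whole were higher in the same libraries, and their part in the values of this list was not tested.

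Most genes listed for neighbouring organs were below the expression minimum. Of 17 stomach genes found, 2 were tested and limma called 0 (1 had an unadjusted p below 0.05): Gkn3, a gastrokine, was at 94.8 and 32.5 CPM (2.10, limma, adjusted p = 0.117), and Pgc, the pepsinogen gene, differed by -0.79 (adjusted p = 0.309). Gkn3 stood at 2.07 CPM in the germ-free animal of pair C and at 28.6 to 55.9 CPM in the other 3, and with that animal left out its difference was 1.09 and passed the test (adjusted p = 0.0271). Stem cell markers also had their lowest sum in that library, 961 CPM, and their part in the Gkn3 values was not tested. A place in this list does not show that a transcript is confined to stomach. Sox2, the stomach counterpart of Cdx2, was listed at 0 in every conventionalized library and averaged 0.045 CPM in germ-free libraries. None of 7 colon genes reached the minimum.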

How the data were processed

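RNA of sorted Sox9-EGFP Low jejunal cells was measured in 8 libraries, grouped by the labelled condition. STAR 2.4.2a, Trimmomatic 0.36, DESeq2 1.12.4, R 3.3.1 and the build mm10 are given in the submitters' processing notes, and the series text per the labels names Salmon and edgeR. Each deposited value was treated as a gene's normalized signal made from estimated counts. This was read from the values, as the labels do not state it. In 27909 genes with 1 transcript, 99.8% of values were whole multiples of a step per library (0.736 to 1.35) within 0.02. The share was 22.9% in 20149 genes with several transcripts. Whole reads could therefore not be recovered for every gene, and the test for continuous values fixed in the design was used. All 8 columns were mapped to libraries by title, and 48058 of 48440 identifiers matched GENCODE M21 without their version. Because the libraries are amplified reads without molecular identifiers, their number covers counting error only.

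TMM factors, which trim 30% of log ratios and 5% of intensities, were computed in R 4.3.3 and gave CPM. The genes that reached 10 CPM in 4 or more libraries were analysed as log2(CPM + 0.5), which understates changes of low genes, with limma 3.58.1 (robust empirical Bayes with a mean trend, two-sided, all 8 libraries, condition as the only term, adjusted by Benjamini-Hochberg over 10053 genes, called under 0.05). Ratios were tested by exact permutation in scipy 1.17.1. The procedure was tested on simulated data. The 8 factors and the lists were chosen with earlier results of these data known, and the lists' targets are from general knowledge. Named were the 8 factors, up to 3 members with the lowest p in each list and the 2 nearest profiles per factor. Some items under this rule are not reported here. Alternatives covered scaling, filter, pseudocount, library weights, the littermate block and libraries left out.

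Littermate pairs are named in the labels. Within pairs A, B, C and D the deviations from the group means correlated at 0.14, -0.16, 0.31 and -0.01. With the pair as a block 13.1% of genes were called against 4.92% without it, and higher genes made up 8.08% and 1.16% of all genes.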

Additional observations from a re-analysis of the deposited data

Results flagged for a closer look

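A value far from the rest of its group of 4 was found in 4 of 72 groups checked, where chance gives about 1 in 20. For Cdx2 the germ-free library of pair C, at 91.7 CPM, lay below the other 3. The other 3 were high values of the conventionalized library of pair A: Esrra at 107 CPM, Npc1l1 at 140.4 CPM and Slc51a at 181 CPM.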

How the results depend on the processing

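No factor passed the test with the replicate block or in any of the 8 fits without 1 library, and Gata6 (0.70) and Klf3 (0.67) passed with library quality weights. Hnf4g changed sign with library size only (-0.041) and without both libraries that stood apart (-0.29), and ranged from -0.19 to 0.43 without 1 library. The Gata4 over Gata6 difference was -0.35 and the Klf5 over Klf3 difference -0.17 without both libraries, with ranges of -0.19 to 0.19 and -0.068 to 0.26 without 1 library. Zfpm1 turned to 0.011 with weights and 0.065 without pair C, and ranged from -0.38 to 0.094 without 1 library. CPM per kb by longest transcript was 183 for Klf5, 25.1 for Gata6 and 23.4 for Klf3.

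Over all genes, higher calls numbered 117, and 263 with upper-quartile scaling, 45 with no filter, 765 with weights, 812 with the replicate block, 235 without both libraries, 54 without pair C and 14 to 410 without 1 library. Lower calls numbered 378, and 608 with weights, 160 without pair C and 151 to 372 without 1 library. In the related lists 2 genes were called higher, and 5 with upper-quartile scaling, 1 with no filter, 11 with weights, 13 with the replicate block, 4 without both libraries, 1 without pair C and 0 to 5 without 1 library. Lower calls there numbered 2, and 5 with library size only, 5 with the replicate block, 6 without both libraries, 0 without pair C and 0 to 4 without 1 library. The cause was not tested. With 4 animals a group, the 95% intervals of 5 of the 8 factors included 0.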
